A study of Mus musculus with 24 samples.

Results

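Gene expression was compared between the epithelial fraction of mouse lung organoids grown with 30000 nylon 6,6 fibers and the same fraction of unexposed organoids. The comparison holds 8 of the 24 libraries of the study, 4 exposed and 4 control, chosen by their titles. Both groups were built alike. EpCAM-positive lung cells from wild-type female C57BL6 mice, 200000 per well of a 6-well plate, were mixed in Matrigel with 200000 cells of CCL206, a single lung fibroblast line derived from a male ddY mouse. Exposed wells also held 30000 fibers of 12 by 31 micrometers, a number that the labels equate to 5000 in a smaller well, and control wells held none. After 7 days the cultures were digested, and magnetic beads against EpCAM, an adhesion protein of the epithelial surface, retained the cells that were sequenced. Each group has cells of mouse 1 to 4, isolated independently, so that every exposed library has a control library from the same mouse. Epithelial libraries from wells with 12000 fibers, also from mouse 1 to 4, entered the same statistical fit and are given for named genes.

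In such organoids, lung progenitors form hollow spheres that hold airway cells (basal, club, goblet and ciliated) or alveolar cells (the flat type 1 and the surfactant-producing type 2). Their growth depends on factors secreted by the fibroblasts around them. Basal cells are the stem cells of the airway surface. They express the transcription factor p63, encoded by Trp63, and attach to laminin through hemidesmosomes.

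The exposed libraries stood apart before any single gene was considered. Summed over all deposited transcripts, they held 6767842 to 9234052 counts, and the controls held 21222034 to 28232472. Genes of the mitochondrial genome took 14.3% to 16.3% of their counts on representative transcripts, against 5.20% to 7.77% in controls and 5.33% to 6.91% at 12000 fibers. The 76 listed ribosomal protein genes took 4.00% to 4.46%, against 0.792% to 0.952% in controls. No exposed library lay within the control range for any of these measures, so none could be left out to remove the difference. Markers of cell types moved as well. The summed level of 7 epithelial markers was 2991 to 3433 CPM (counts scaled to the size of the library) with fibers and 4357 to 4992 CPM in controls, with 5 markers lower, 1 higher and 1 not called. The summed level of the 7 fibroblast markers that could be tested was 2012 to 2708 CPM with fibers, 365 to 1049 CPM in controls and 1273 to 1511 CPM at 12000 fibers, with all 7 higher. The 2 tested of 6 defining immune markers summed to 3.92 to 8.02 CPM with fibers and 4.18 to 7.08 CPM in controls, with 1 higher and none lower. The 3 tested of 5 endothelial markers summed to 3.92 to 5.34 and 4.17 to 5.16 CPM, with 1 lower and none higher. Of 4 mesothelial markers only Msln, which lung epithelial cells can also express, was tested (386 to 603 CPM against 987 to 1209 CPM).

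**Figure D1:**
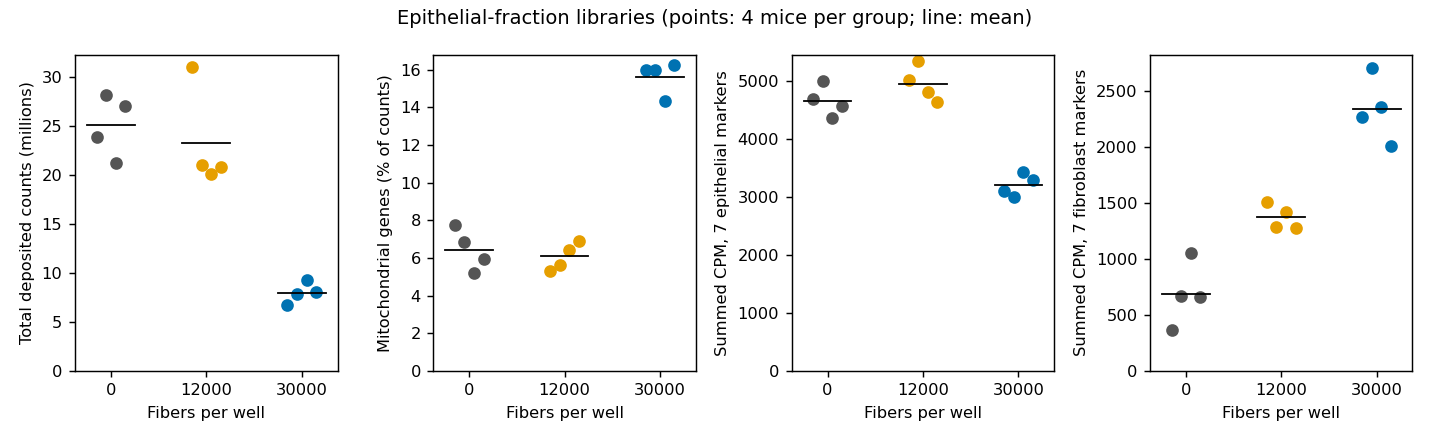
Depth and composition of the 12 epithelial libraries by number of fibers per well (x axis): total deposited counts, share of counts on mitochondrial genes in percent, and summed CPM of 7 epithelial and of 7 fibroblast marker genes; each point is 1 library and each line the mean of 4. The 4 libraries at 30000 fibers have the lowest totals (6767842 to 9234052 counts), the highest mitochondrial shares (14.3% to 16.3%) and the highest fibroblast marker sums (2012 to 2708 CPM).

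Most genes differed between the groups. Of 13759 genes tested, 9026 passed the edgeR quasi-likelihood test at a Benjamini-Hochberg adjusted p under 0.05 (65.6%), 4434 higher (32.2%) and 4592 lower (33.4%) with 30000 fibers. Because so many genes passed, a second test asked for a change of more than 2-fold, and 1957 genes passed it (14.2%), 1224 higher (8.9%) and 733 lower (5.33%). Below, "rose" and "fell" refer to the first test, and "past 2-fold" to the second. Counts of list members that rose or fell are to be read beside the 32.2% and 33.4% of all genes. For 7991 genes (58.1%) the CPM values of the 4 exposed and the 4 control libraries did not overlap. A lack of overlap stated for a gene below is therefore not particular to it. The median log2 fold change over all genes tested was -0.03.

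The size of a change went with the length of the transcript. The 110 genes with a representative transcript under 500 nucleotides had a median log2 fold change of 1.81, the 677 genes of 500 to 1000 nucleotides 1.08, the 2561 genes of 1000 to 2000 nucleotides 0.31, the 5539 genes of 2000 to 4000 nucleotides -0.05 and the 4790 longer genes -0.19. The same classes at 12000 fibers ran from -0.01 to 0.07. Many results below are therefore also given with the length trend removed, that is, after a smooth curve of fold change on length over all genes was taken out by an offset. With the trend removed the median of all genes was -0.10, 3663 genes rose (26.6%) and 5094 fell (37.0%), and past 2-fold 797 rose and 894 fell. List counts given with the trend removed are to be read beside the 26.6% and 37.0%. The share of higher genes among those past 2-fold went from 62.5% to 47.1%. Of the genes called in the main test, 7755 were also called in the same direction after the trend was removed, and 139 in the opposite one. Counts of genes from fits at equal depth and without mitochondrial genes are given at the end. Whether depth, the mitochondrial share or transcript length had a part in the single results below was not tested except where such values are given.

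**Figure D2:**
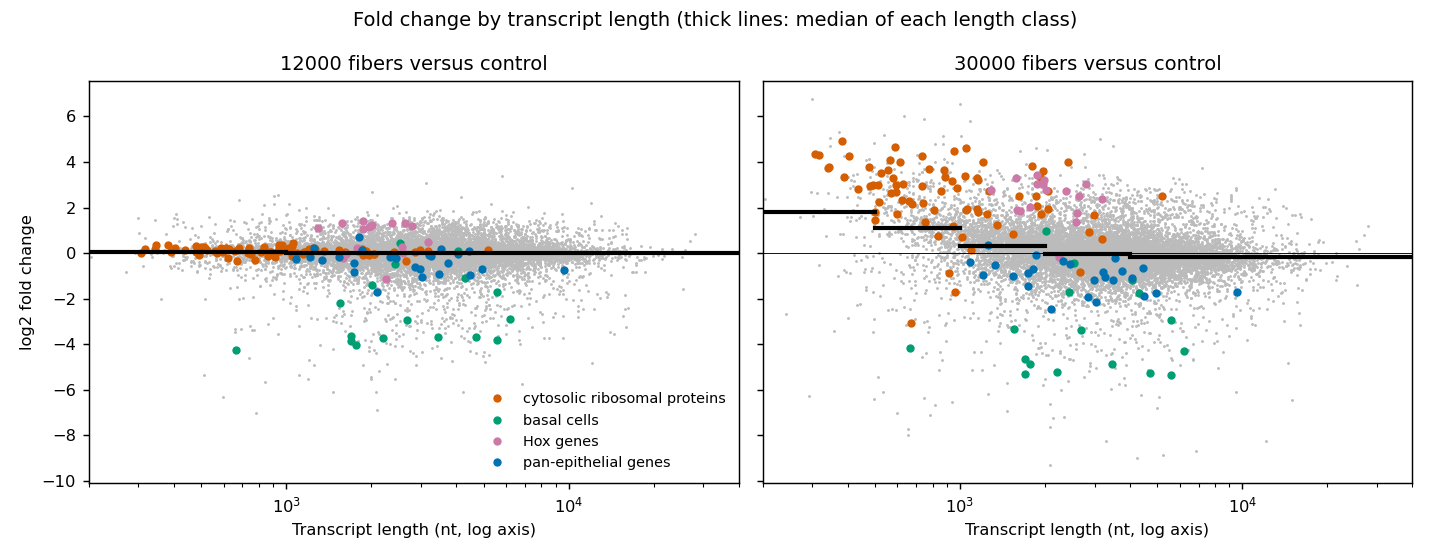
Log2 fold change against control (y axis) by length of the representative transcript in nucleotides (x axis, log scale) for all genes at 12000 fibers (left) and 30000 fibers (right); colored points are members of 4 gene lists and thick black lines are the medians of 5 length classes. At 30000 fibers the class medians descend from 1.81 to -0.19, while basal cell genes lie low and Hox genes high at like lengths.

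Genes that hold epithelial cells together and keep their identity were lower with fibers. Of 25 pan-epithelial genes tested, 22 fell and 1 rose (background 33.4% lower and 32.2% higher), 7 fell past 2-fold (background 5.33%) and none rose past it. The list median was -0.96, and -1.15 with the length trend removed. In bulk RNA, fewer cells of a type and less RNA per cell cannot be told apart. Epcam itself (chromosome 17, 87636682 to 87651129 in mm10), the target of the beads, stood at 743, 644, 604 and 609 CPM in control mice 1 to 4 and at 262, 185, 249 and 261 CPM with fibers (log2 fold change -1.44 ± 0.09, adjusted p = 1.43e-10). Grhl2, a transcription factor that maintains epithelial junctions (chromosome 15, 37233036 to 37363569), stood at 132, 109, 103 and 109 CPM in controls and at 32.5, 27.9, 38.6 and 32.7 CPM with fibers (log2 fold change -1.78 ± 0.10, adjusted p = 5.16e-12). The desmosome gene Dsp, which encodes desmoplakin (chromosome 13, 38151294 to 38198577), stood at 814, 665, 646 and 662 CPM and at 195, 192, 230.5 and 223 CPM with fibers (log2 fold change -1.73 ± 0.08, adjusted p = 4.71e-13). All exposed libraries lay below all controls for each of these 3 genes, by more than the spread within either group. The membrane serine protease gene St14 fell as well, from 316 ± 21.5 to 150.3 ± 14.9 CPM (SD, n = 4; log2 -1.07 ± 0.07, SE). Elf3, an epithelial ETS factor picked after its values were seen, stood at 221, 147, 175 and 202 CPM and at 33.7, 26.8, 36.8 and 36.4 CPM with fibers (log2 fold change -2.47 ± 0.14, adjusted p = 5.38e-10).

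The list did not move as one, as a pair of members picked after their values were seen shows. Cdh1, the gene of E-cadherin, the adhesion protein of epithelial junctions, went from 1422 ± 99.1 to 894 ± 67.5 CPM (log2 -0.67 ± 0.07). The tight junction gene Cldn3 was the only member that rose, from 169 ± 5.5 to 214 ± 5.7 CPM (log2 0.34 ± 0.06). Its transcript has 1259 nucleotides, and with the length trend removed its change was -0.23, in the opposite direction.

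Of the keratin genes named by the rule, Krt7, Krt19 and Krt4 are given here, and Krt5 is plotted with the named genes below. Krt7, a keratin of simple epithelia, stood at 2333, 2256, 1864 and 1954 CPM in controls and at 476, 514, 551 and 547 CPM with fibers (log2 fold change -2.01 ± 0.08, adjusted p = 3.58e-14). The representative transcript of Krt7 is annotated as one that keeps an intron. With counts summed over its transcripts the change was -1.67. Krt19, carried by the same kinds of cell, went from 1593 ± 193 to 532 ± 47.2 CPM (log2 -1.58 ± 0.09). Krt4, a keratin of suprabasal cells, stood at 109, 84.8, 51.2 and 78.8 CPM in controls and rested on 1, 1, 3 and 1 raw counts with fibers. Its fitted change of -7.27 is therefore uncertain in size.

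Among basal cell genes, 16 of 17 tested fell, 15 of them past 2-fold, and 1 rose, with a median of -4.19 (-4.22 with the trend removed, -2.93 at 12000 fibers). Trp63 (chromosome 16, 25801916 to 25892102) stood at 171, 121, 80.0 and 125 CPM in controls and at 0.392, 3.17, 5.0 and 3.67 CPM with fibers (log2 fold change -5.26 ± 0.53, adjusted p = 1.05e-05). The highest exposed library, from mouse 3, lay far below the lowest control, which came from the same mouse. Sox2, a transcription factor of the airway lineage, stood at 95, 74.2, 59.4 and 77.1 CPM and at 9.01, 8.11, 14.7 and 9.02 CPM with fibers (log2 fold change -2.88 ± 0.25, adjusted p = 6.70e-07). Barx2, a homeobox factor of epithelia, stood at 36.6, 19.9, 18.6 and 22.4 CPM in controls and had 1, 0, 2 and 2 raw counts with fibers (log2 -5.78 ± 0.45). The NOTCH pathway, through which airway progenitors choose a secretory over a ciliated fate, had 11 of 15 tested genes lower and 3 higher (median -1.02). The receptor gene Notch1 fell from 115 ± 14.6 to 31.1 ± 3.79 CPM (log2 -1.88 ± 0.10), while Rbpj, the DNA-binding partner of all NOTCH receptors, rose from 90.0 ± 9.49 to 165 ± 9.14 CPM (log2 0.87 ± 0.08).

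The anchors of epithelial cells to the basement membrane were lower. Of 28 genes of integrins, laminins and other basement membrane proteins, 18 fell and 6 rose, with a median of -0.61. Itgb4 and Itga6, which together form the hemidesmosome integrin, stood at 999.9, 766, 709 and 739.8 and at 506, 419, 412 and 415 CPM in controls. With fibers they stood at 90.5, 95.2, 125 and 104 and at 126, 127, 138 and 129.6 CPM (log2 -2.95 ± 0.13 and -1.75 ± 0.08). Itga3, the laminin-binding partner of integrin beta 1, fell from 1103 ± 78.1 to 409 ± 52.5 CPM (log2 -1.43 ± 0.08). Of the laminin chains, Lama5, the alpha chain of adult epithelial basement membranes (chromosome 2, 180176373 to 180225859), stood at 2277, 2036, 2119 and 2260.2 CPM in controls and at 789, 751, 834 and 985 CPM with fibers (log2 fold change -1.37 ± 0.08, adjusted p = 1.30e-11). Lama1, an alpha chain of embryonic basement membranes, stood at 102, 70.9, 58.5 and 53.7 CPM and had only 3, 3, 4 and 2 raw counts with fibers (log2 -6.10 ± 0.45). Every one of these transcripts is over 4 kilobases long, and with the length trend removed the changes were -2.83 for Itgb4, -1.73 for Itga6 and -1.21 for Lama5. The 3 members that rose past 2-fold were Nid1, Nid2 and Itga8, all chosen here after their values were seen. Nid1 changed by 1.92 ± 0.26. Nid2, which links laminin to collagen IV, went from 2.81 ± 1.28 to 14.1 ± 5.55 CPM (log2 2.34 ± 0.30) and Itga8, an integrin of mesenchymal cells, changed by 1.71 ± 0.27.

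Water and ion transport, by which lung epithelium controls its surface liquid, had 11 of 18 tested genes lower and 2 higher (median -0.58), 7 of them lower past 2-fold. Aqp5, the apical water channel of type 1 and serous cells (chromosome 15, 99590782 to 99594829), stood at 1069, 888, 702 and 820.4 CPM in controls and at 285, 228, 244 and 292 CPM with fibers (log2 fold change -1.73 ± 0.11, adjusted p = 3.82e-10). Aqp4, a basolateral water channel of airway cells, stood at 1079, 551, 598 and 831 CPM and at 12.5, 3.17, 14.1 and 7.35 CPM with fibers (log2 fold change -6.34 ± 0.41, adjusted p = 3.17e-07), from 32, 9, 48 and 22 raw counts. The chloride loader Slc12a2 went from 566 ± 59.4 to 204 ± 36.7 CPM (log2 -1.47 ± 0.10). No exposed library reached a control level for any of the 3.

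Lung lineage factors moved in both directions. Of 18 tested, 9 fell and 5 rose, and 2 fell past 2-fold, beside 33.4%, 32.2% and 5.33% over all genes. Nkx2-1, the factor that marks all lung epithelium (chromosome 12, 56531958 to 56536908), stood at 186, 218, 193 and 224 CPM in controls and at 143, 105, 115 and 135 CPM with fibers (log2 fold change -0.73 ± 0.10, adjusted p = 5.84e-06). Nfib, a factor of lung maturation, went from 363 ± 25.3 to 213 ± 26.8 CPM (log2 -0.77 ± 0.09). The second member past 2-fold besides Sox2 was Cebpa, a factor of type 2 and club cell differentiation, picked after its values were seen. It stood at 74.5, 80.1, 111 and 100.2 CPM in controls and at 31.7, 26.1, 26.2 and 22 CPM with fibers (log2 fold change -1.79 ± 0.20, adjusted p = 6.27e-06). At 12000 fibers Cebpa was at 79.7 ± 17.1 CPM, and the difference between the fiber numbers passed the test in the same fit (log2 -1.60 ± 0.20, adjusted p = 2.83e-05). Sox9, a factor of distal lung progenitors, was among the members that rose, from 64.9 ± 5.08 to 95.4 ± 7.54 CPM (log2 0.56 ± 0.08).

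Alveolar genes did not move in a single direction. Of 24 type 2 genes, 11 rose and 5 fell (median 0.38), and of 18 type 1 genes, 2 rose and 11 fell (median -0.52). Sftpc, the surfactant protein that defines type 2 cells, stood at 913, 2096, 2086 and 1587 CPM in controls and at 3994, 4204, 2802 and 3394 CPM with fibers (log2 fold change 1.11 ± 0.29, adjusted p = 0.00675). The control of mouse 1 was the lowest library, and the groups did not overlap. Its transcript has 792 nucleotides, and with the length trend removed its change was -0.15 (adjusted p = 0.669), so the call was lost. Scd1, the desaturase that makes oleic acid for surfactant lipids, has a transcript of 4832 nucleotides and went from 3871 ± 999 to 10255 ± 1379.5 CPM (log2 1.41 ± 0.18, and 1.47 with the trend removed). The lysosomal protease gene Ctsh, which processes surfactant proteins, rose from 451 ± 43.9 to 714 ± 73.8 CPM (log2 0.66 ± 0.10, and 0.33 with the trend removed). Il33, an alarmin stored in type 2 nuclei, stood at 122, 107, 77.3 and 77.1 CPM in controls and at 25.5, 19, 16.8 and 20.0 CPM with fibers (log2 fold change -2.25 ± 0.19, adjusted p = 1.34e-07). Cav1, which forms the caveolae of type 1 cells, fell from 166 ± 13.4 to 83.5 ± 4.23 CPM (log2 -1.0 ± 0.08).

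**Figure D3:**
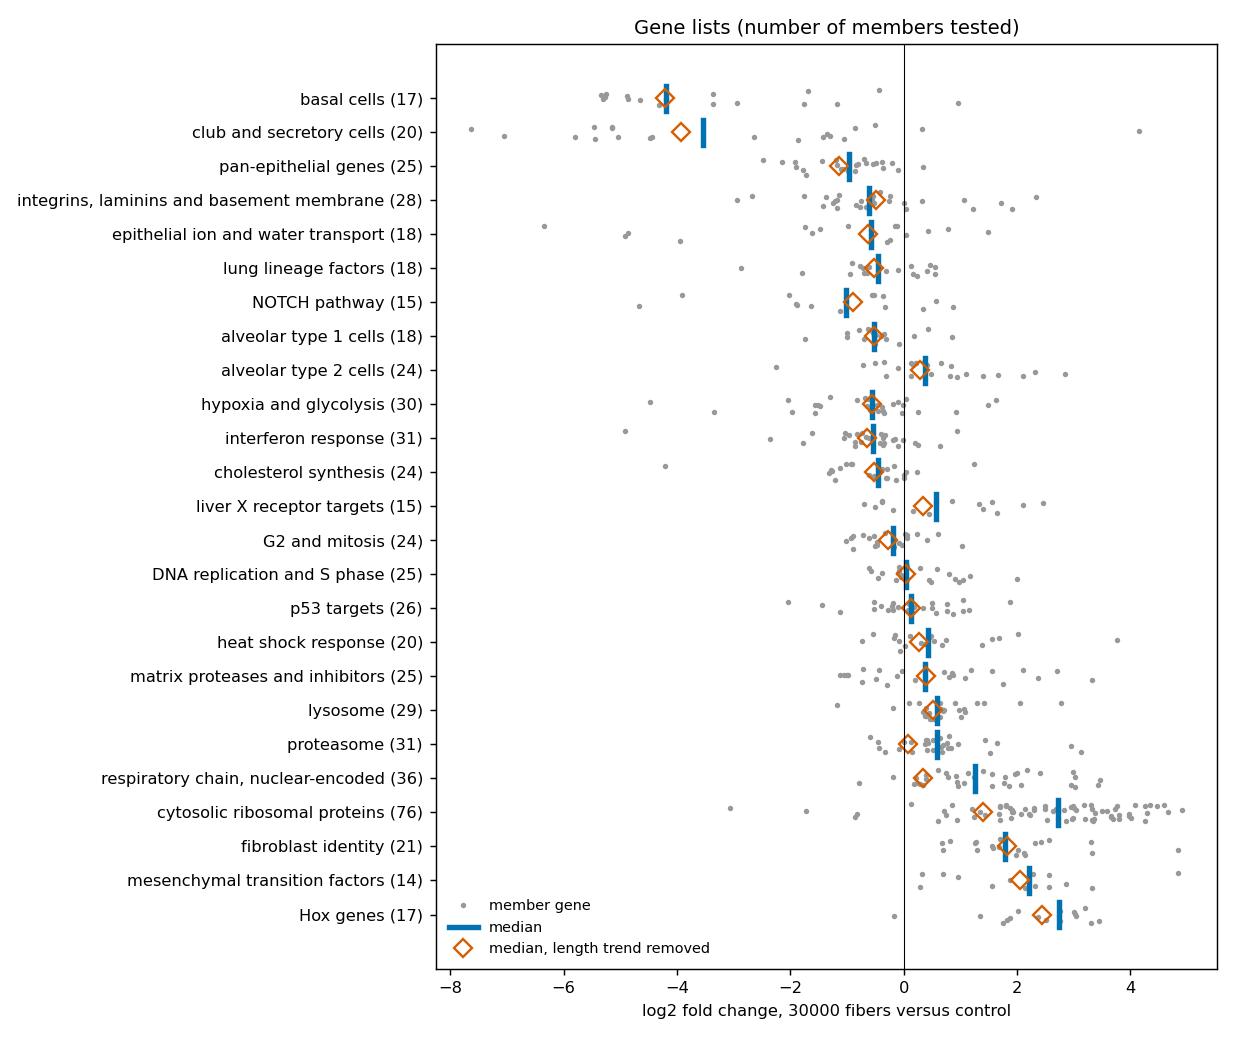
Log2 fold change at 30000 fibers versus control (x axis) for the tested members of 25 gene lists; grey points are genes, blue bars the list medians, and open orange diamonds the medians with the transcript length trend removed. Medians of the airway and adhesion lists lie below 0, those of the fibroblast, mesenchymal and Hox lists above 1 with and without the trend, and the ribosomal median goes from 2.72 to 1.40.

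Genes of fibroblasts, of mesenchymal transcription factors and of the Hox clusters were higher with fibers. Of 21 fibroblast identity genes tested, 20 rose and none fell, 14 of them past 2-fold (background 8.9%), with a median of 1.78 (1.82 with the trend removed, 1.01 at 12000 fibers). The small proteoglycan gene Dcn (chromosome 10, 97479609 to 97518143) stood at 15, 21.2, 36.2 and 21.8 CPM in controls and at 207, 262, 244 and 206 CPM with fibers (log2 fold change 3.30 ± 0.21, adjusted p = 1.42e-07). Col1a1, which encodes the main chain of collagen I, stood at 171, 292, 436 and 283 CPM and at 853, 1034, 923 and 732 CPM with fibers (log2 fold change 1.59 ± 0.24, adjusted p = 1.88e-04). Vim, the intermediate filament gene of mesenchymal cells, stood at 74.8, 153, 249 and 162 CPM and at 722, 954, 783 and 722 CPM with fibers (log2 fold change 2.32 ± 0.30, adjusted p = 6.02e-05). The control of mouse 1 was the lowest and that of mouse 3 the highest for all 3 genes, and no control reached an exposed library.

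All 14 mesenchymal transition factors tested rose, 9 past 2-fold, with a median of 2.21 (2.05 with the trend removed). Snai1, a repressor of E-cadherin (chromosome 2, 167538195 to 167542814), stood at 2.55, 4.96, 8.34 and 6.68 CPM in controls and at 38.8, 44.8, 45 and 34.4 CPM with fibers (log2 fold change 2.87 ± 0.21, adjusted p = 5.31e-09, and 2.54 with the trend removed). The basic helix-loop-helix factor gene Twist1 went from 1.92 ± 0.794 to 19.2 ± 1.8 CPM (log2 3.33 ± 0.24, and 3.01 with the trend removed). S100a4, a calcium-binding protein of motile mesenchymal cells, has a transcript of 498 nucleotides, and its change went from 4.83 ± 0.23 to 2.76 with the trend removed. Snai2, picked after its values were seen, took an uneven course over the fiber numbers. It stood at 16.2, 13.3, 11.1 and 12.5 CPM in controls, at 5.02, 4.8, 4.88 and 5.36 CPM with 12000 fibers and at 25.9, 28.2, 25.9 and 23.4 CPM with 30000 fibers. None of the 3 groups overlapped, with the lowest levels at 12000 fibers.

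Hox genes, which record the position of a cell along the body axis, rose in 16 of 17 cases, all 16 past 2-fold, with a median of 2.74 (2.45 with the trend removed, 1.09 at 12000 fibers). Hoxa5, a factor of lung mesenchyme (chromosome 6, 52201754 to 52204587), stood at 4.05, 4.86, 7.56 and 4.35 CPM in controls and at 54.8, 57.5, 59.2 and 52.4 CPM with fibers (log2 fold change 3.44 ± 0.15, adjusted p = 1.04e-13). The study's own follow-up centred on Hoxa5, so the list is not independent evidence of a direction. Hoxb3 stood at 7.87, 10.9, 12.8 and 8.9 CPM and at 62.3, 56.8, 46.2 and 44.4 CPM with fibers (log2 fold change 2.37 ± 0.15, adjusted p = 9.52e-11), and its transcript has 3190 nucleotides. Hoxc8 and Hoxc6 went from 4.03 ± 1.17 and 2.33 ± 0.868 to 32.3 ± 6.05 and 22.9 ± 4.44 CPM (log2 3.01 ± 0.18 and 3.30 ± 0.23).

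Of the other cells the bead fraction could hold, immune cells had 23 listed genes, of which 6 were in the table and tested, with 3 higher and 1 lower. Cd68, a macrophage marker, went from 17 ± 3.74 to 30.6 ± 4.39 CPM (log2 0.85 ± 0.15), a call lost with the trend removed (log2 0.24, adjusted p = 0.153). Ptprc, Itgam and Adgre1, which define leukocytes and macrophages, are not in the table. The fibroblast marker sums given above moved with these 3 lists, and their part in the lists' changes was not tested. The marker set and the fibroblast identity list share members, among them Dcn and Lum, so these 2 are not independent measures. The fibroblast line is labelled male and the epithelial cells female. Of the Y-linked protein-coding genes only Kdm5d could be tested, and it was picked for this reason with its values in view. Kdm5d had 26, 17, 9 and 24 raw counts in the controls and 0, 1, 2 and 2 with fibers (log2 -2.25 ± 0.56, adjusted p = 0.00156), lower while the fibroblast genes were higher, at very low counts throughout, and it may share reads with its X-linked relative. Nothing in the labels says whether CCL206 still carries its Y chromosome. Xist, the RNA that coats the inactive X chromosome of female cells, did not pass the test, at 3241, 2751, 3443 and 3432 CPM in controls and 3017, 3763, 3235 and 3492 CPM with fibers (log2 0.07 ± 0.10, adjusted p = 0.546). With the length trend removed its change was 0.24 (adjusted p = 0.0403).

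Of 21 tested genes in a list drawn up for growth factors by which mesenchyme supports epithelium, 12 rose and 4 fell (median 0.61). Over all genes 32.2% were higher and 33.4% lower. The list also holds Wnt7b and Vegfc, so its counts do not describe such support alone. The WNT ligands Wnt7b and Wnt4 were among those that fell. Fgf7, a fibroblast ligand for epithelial FGF receptors (chromosome 2, 126034658 to 126091185), stood at 2.66, 4.48, 9.77 and 6.27 CPM in controls and at 43.5, 50.8, 34.7 and 36.4 CPM with fibers (log2 fold change 2.85 ± 0.30, adjusted p = 4.27e-06). Vegfc, a ligand of lymphatic vessel growth, went from 5.72 ± 1.36 to 32.7 ± 3.62 CPM (log2 2.52 ± 0.16). Wnt7b, made by lung epithelium and read by mesenchyme (chromosome 15, 85535441 to 85581821), stood at 129.5, 122, 116 and 117 CPM and at 37.6, 30.7, 42.4 and 37.7 CPM with fibers (log2 fold change -1.70 ± 0.09, adjusted p = 3.41e-12). Wnt4 went from 41.1 ± 13.9 to 4.4 ± 1.43 CPM (log2 -3.21 ± 0.30). For all 4 genes the groups did not overlap, as for 58.1% of all genes.

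Of 16 WNT feedback and target genes, 9 rose and 5 fell. The secreted inhibitor Sfrp1 stood at 7.99, 7.39, 9.64 and 10.2 CPM and at 35.3, 43.7, 32.4 and 28.7 CPM with fibers (log2 fold change 1.99 ± 0.16, adjusted p = 1.63e-09). Lef1, a transcription factor through which WNT acts, went from 3.82 ± 1.9 to 19 ± 2.84 CPM (log2 2.32 ± 0.26). In the TGF-beta and BMP list 9 of 28 rose and 10 fell, near the 32.2% and 33.4% over all genes. Id3, an early BMP target, stood at 4.17, 5.16, 7.69 and 6.58 CPM in controls and at 65, 66, 59.8 and 65.1 CPM with fibers (log2 fold change 3.44 ± 0.16, adjusted p = 7.05e-13, and 2.89 with the trend removed). Tgfbi, a matrix protein named for its induction by TGF-beta, fell from 63.8 ± 19 to 13.8 ± 1.46 CPM (log2 -2.21 ± 0.21). Of the ERBB receptor genes, which bind EGF family ligands, Erbb2 and Erbb3 fell from 129 ± 17.1 and 219 ± 15.6 to 51.1 ± 3.54 and 93.6 ± 11.7 CPM (log2 -1.33 ± 0.09 and -1.22 ± 0.08).

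Chemokines and cytokines moved in both directions. Of 24 chemokine and cytokine genes tested, 8 rose and 5 fell, near or below the shares over all genes, with a median of 0.10, and of -0.18 with the length trend removed. Ccl2 and Ccl7, both ligands of the monocyte receptor CCR2, lie next to each other on chromosome 11 (82035571 to 82037453 and 82045712 to 82047525). Ccl2 stood at 3.47, 7.2, 9.25 and 5.77 CPM in controls and at 171, 219, 152 and 159 CPM with fibers (log2 fold change 4.78 ± 0.19, adjusted p = 8.62e-11). Ccl7 stood at 2.08, 3.99, 4.43 and 3.84 CPM and at 42.3, 60.7, 42.1 and 41.4 CPM with fibers (log2 fold change 3.69 ± 0.17, adjusted p = 4.03e-13). The transcripts have 813 and 801 nucleotides, and with the trend removed the changes were 3.56 and 2.45. Cxcl12, a ligand made by stromal cells and picked after its values were seen, stood at 8.22, 22.6, 35.2 and 20.8 CPM and at 109.7, 147, 112 and 109 CPM with fibers (log2 fold change 2.47 ± 0.32, adjusted p = 6.70e-05). Mif, a constitutive cytokine gene with a transcript of 544 nucleotides, rose by 1.95 ± 0.11, and with the trend removed its change of 0.03 did not pass the test.

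Among 22 feedback and target genes of NF-kappaB, a transcription factor of inflammation, 9 fell and 4 rose, beside 33.4% and 32.2% over all genes. C3, the central complement component, stood at 416, 285, 329.8 and 337 CPM in controls and at 111, 94.2, 96.6 and 103 CPM with fibers (log2 fold change -1.76 ± 0.10, adjusted p = 1.86e-11). Nfkb1, a subunit of the factor, and Tnfaip3, its feedback inhibitor, changed by -0.64 ± 0.07 and -0.71 ± 0.08. Ptgs2, the inducible prostaglandin synthase (chromosome 1, 150100031 to 150108227), went the other way, from 450.0, 538, 552 and 518 CPM to 919, 767, 1053 and 1061 CPM (log2 fold change 0.89 ± 0.09, adjusted p = 1.44e-07). At 12000 fibers it was at 947 ± 71.4 CPM.

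Interferon response genes were lower in 16 of 31 cases and higher in 2, beside 33.4% and 32.2% over all genes (median -0.54). Ifih1, a cytosolic sensor of viral RNA, went from 46.7 ± 5.07 to 27.9 ± 6.01 CPM (log2 -0.74 ± 0.12). The ubiquitin-like gene Isg15 went from 7.36 ± 1.23 to 2.32 ± 1.29 CPM (log2 -1.62 ± 0.33, and -2.95 with the trend removed) on 5, 2, 10 and 11 raw counts. Irgm1, an immunity-related GTPase gene, rose from 17 ± 2.02 to 32.6 ± 1.38 CPM (log2 0.94 ± 0.12). In the MHC class I pathway, which presents peptides on the cell surface, 2 of 15 rose and 5 fell. B2m, the light chain of every class I molecule (chromosome 2, 122147686 to 122153083), stood at 235, 248, 354 and 270.0 CPM in controls and at 1873, 1874, 1907 and 1666 CPM with fibers (log2 fold change 2.73 ± 0.12, adjusted p = 2.61e-12). Its transcript has 860 nucleotides, and the change was 1.61 with the trend removed. Psme2, a subunit of the proteasome activator PA28 with a transcript of 826 nucleotides, went against the trend of short transcripts. It stood at 30.0, 21.8, 24.4 and 23 CPM and at 7.84, 4.23, 10.0 and 12 CPM with fibers (log2 fold change -1.52 ± 0.19, adjusted p = 8.57e-07, and -2.70 with the trend removed). H2-Q4, a nonclassical heavy chain, fell from 80.6 ± 8.15 to 37.4 ± 6.56 CPM (log2 -1.10 ± 0.10), with the caution that class I genes are near-identical and may share reads.

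Matrix proteases and their inhibitors had 12 of 25 tested genes higher and 9 lower. The stromelysins, secreted proteases that cleave matrix proteins, lie close together on chromosome 9. Mmp3 (7445822 to 7455975) stood at 0.695, 1.26, 1.82 and 0.607 CPM in controls and at 12.1, 12.7, 7.65 and 11.4 CPM with fibers (log2 fold change 3.32 ± 0.29, adjusted p = 5.18e-09), and had 31, 36, 26 and 34 raw counts in the exposed libraries. Mmp10 (7502352 to 7510240), picked after its values were seen, stood at 3.36, 9.15, 11.2 and 6.78 CPM and at 41.1, 60.3, 49.5 and 46.1 CPM with fibers (log2 fold change 2.70 ± 0.25, adjusted p = 6.73e-07). All exposed libraries were above all controls for both. With the trend removed the changes were 3.05 and 2.41. The inhibitor genes moved the same way: Timp1 stood at 20.3, 22.3, 22.3 and 17.6 CPM and at 54.1, 79, 81.5 and 61.5 CPM with fibers (log2 fold change 1.75 ± 0.12, adjusted p = 2.15e-10), and Timp2 went from 471 ± 61.9 to 997 ± 108 CPM (log2 1.08 ± 0.09). Timp1 has a transcript of 833 nucleotides, and its change was 0.58 with the trend removed. The sheddase gene Adam17 changed by -0.72 ± 0.07.

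The stretches of 250 bases before the RefSeq starts of both stromelysin genes are shown because each holds 1 copy of the AP-1 element TGAGTCA, in capitals, and because AP-1 genes were measured in the same libraries. They are from RefSeq, build GRCm38.p6, plus strand, at chr9:7445572-7445821 and chr9:7502092-7502341.
Mmp3: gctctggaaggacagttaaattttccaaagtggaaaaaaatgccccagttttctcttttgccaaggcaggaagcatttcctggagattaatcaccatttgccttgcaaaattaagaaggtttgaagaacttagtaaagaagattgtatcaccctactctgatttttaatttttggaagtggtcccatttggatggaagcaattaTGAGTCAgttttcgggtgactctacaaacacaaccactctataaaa
Mmp10: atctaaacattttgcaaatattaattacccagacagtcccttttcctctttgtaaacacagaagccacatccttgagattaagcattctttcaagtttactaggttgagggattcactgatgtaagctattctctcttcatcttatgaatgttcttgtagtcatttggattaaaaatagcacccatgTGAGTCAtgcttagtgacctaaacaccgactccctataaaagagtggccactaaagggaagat
Searched on both strands, TGAGTCA lay in 4.46% of the 32851 promoter windows of this length, and in those of 6 of the 17 matrix protease and inhibitor genes that had a window. Of these 6, Mmp3, Mmp10, Mmp13 and Plaur rose, Mmp12 did not pass the test (log2 0.37) and Mmp7 was not tested. A match describes the letters and is not a binding site. The 4.46% counts windows and the 6 of 17 counts genes, so the 2 are unlike measures, and Mmp3 and Mmp10 are neighbours. An excess of the motif was not tested. Of 22 immediate early and AP-1 genes, 6 rose and 5 fell, below the 32.2% and 33.4% over all genes. Fosl1, which encodes the AP-1 subunit FRA-1 (chromosome 19, 5447547 to 5455946), stood at 22.9, 28.6, 27.9 and 28.2 CPM in controls and at 99.5, 159.8, 126 and 111 CPM with fibers (log2 fold change 2.20 ± 0.12, adjusted p = 1.41e-10). Egr3, an early growth response factor, went from 4.39 ± 1.17 to 24.4 ± 6.34 CPM (log2 2.47 ± 0.21). Junb, another AP-1 subunit, fell, with a change of -0.66 ± 0.06.

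Genes of cholesterol synthesis were lower and the main sterol exporters higher. Cells make cholesterol when the factor SREBP2 (gene Srebf2) is active, and liver X receptors (LXR) switch on exporters when sterols are plentiful. Of 24 cholesterol synthesis genes tested, 16 fell and 1 rose (median -0.45, and -0.53 with the trend removed). Srebf2 (chromosome 15, 82147181 to 82205379) stood at 250.0, 255, 224 and 227 CPM in controls and at 95.6, 97.4, 95.1 and 94.2 CPM with fibers (log2 fold change -1.32 ± 0.07, adjusted p = 3.41e-12). Hmgcs1, a synthase early in the pathway (chromosome 13, 119690464 to 119708260), stood at 217, 246, 221 and 231 CPM and at 115, 114, 111 and 114 CPM with fibers (log2 fold change -1.01 ± 0.07, adjusted p = 1.77e-10). Neither transcript is under 3 kilobases, and no exposed library reached a control level for either gene. The member that rose was Fdps, farnesyl diphosphate synthase, named as the exception. It stood at 27.5, 27.9, 21.9 and 22.9 CPM and at 54.1, 65.6, 59.8 and 58.5 CPM with fibers (log2 fold change 1.24 ± 0.11, adjusted p = 5.29e-09, and 0.79 with the trend removed for its 1382 nucleotides). At 12000 fibers Fdps had gone the other way, to 16.6 ± 2.29 CPM (log2 -0.59, adjusted p = 3.00e-04).

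Of 15 LXR target genes, 8 rose and 5 fell. The exporter gene Abca1 (chromosome 4, 53030787 to 53159895) stood at 43.8, 45.1, 62.5 and 65.4 CPM in controls and at 188, 127, 179 and 183 CPM with 30000 fibers (log2 fold change 1.64 ± 0.15, adjusted p = 4.69e-07). With 12000 fibers it stood at 373, 411, 371 and 408 CPM, so all libraries at 12000 fibers lay above all at 30000, and the difference passed the test (log2 -1.21 ± 0.14, adjusted p = 8.52e-06). Abcg1, which hands sterols to lipoproteins, took the same course, at 2.66, 2.92, 4.3 and 2.63 CPM in controls, 34.5, 26, 30.3 and 38.9 CPM with 12000 and 19.2, 7.41, 18.3 and 23.4 CPM with 30000 fibers (log2 2.47 ± 0.30 against control). Mouse 2 gave the lowest exposed library for both exporters. Apoc1, a lipoprotein component with a transcript of 432 nucleotides, changed by 2.11 ± 0.20, but by -0.18 with the trend removed.

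Heat shock genes rose in part. Chaperones of this group hold unfolded proteins and are switched on by the factor HSF1 through heat shock elements, inverted repeats of GAA. Of 20 tested genes, 12 rose and 2 fell (median 0.42, and 0.08 at 12000 fibers). Hspa8, the constitutive HSP70 (chromosome 9, 40801276 to 40805199), stood at 432, 448, 410.4 and 359 CPM in controls and at 1273, 1359.9, 1363 and 1328 CPM with fibers (log2 fold change 1.69 ± 0.07, adjusted p = 9.03e-14). Its partner gene Dnaja1 stood at 74.7, 79.8, 77.1 and 84.7 CPM and at 224, 199.7, 198 and 206 CPM with fibers (log2 fold change 1.38 ± 0.06, adjusted p = 2.95e-13). At 12000 fibers they were at 429 ± 21.1 and 89.9 ± 3.19 CPM, where Hspa8 did not pass the test (adjusted p = 0.558) and Dnaja1 did (log2 0.18, adjusted p = 0.0259). Hspe1, the lid of the mitochondrial chaperonin (chromosome 1, 55088132 to 55091307), stood at 26.7, 19.3, 18.6 and 14.4 CPM and at 232, 292, 263 and 284 CPM with fibers (log2 fold change 3.77 ± 0.14, adjusted p = 2.56e-11, and 2.47 with the trend removed for its 774 nucleotides). Cryab, a small heat shock protein, went from 28.6 ± 6.94 to 115 ± 4.51 CPM (log2 2.01 ± 0.13, and 1.26 with the trend removed). The inducible Hspa1a, picked after its values were seen, was not among the genes that rose: it went from 19.4 ± 5.4 to 11.7 ± 1.23 CPM (log2 -0.73 ± 0.20, adjusted p = 0.00337), with a near-identical neighbour, Hspa1b, that can share its reads. Hspa8 and Hspe1 have processed copies elsewhere in the genome that can share their reads, so the exact sizes are uncertain.

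The promoter window of Hspe1 is shown because it holds a full heat shock element, which few promoter windows do, and because the gene lies head to head with Hspd1, which encodes the barrel of the same chaperonin. It covers chr1:55087898-55088147, plus strand, in RefSeq build GRCm38.p6, and capitals mark 2 overlapping matches of a heat shock element, 1 on each strand, searched as GAA, TTC and GAA with any 2 bases between each.
Hspe1: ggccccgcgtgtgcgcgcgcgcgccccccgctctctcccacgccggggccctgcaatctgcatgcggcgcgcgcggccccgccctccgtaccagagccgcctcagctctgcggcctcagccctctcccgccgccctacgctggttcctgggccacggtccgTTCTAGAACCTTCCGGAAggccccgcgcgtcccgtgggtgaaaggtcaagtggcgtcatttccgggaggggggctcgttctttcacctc
The motif was found, on both strands, in 0.466% of the 32851 windows and in those of 2 of the 16 heat shock genes with a window, Hspe1 and Hspd1. Despite the shared stretch the partners changed by different amounts. Hspd1, with a transcript of 2423 nucleotides, stood at 151, 185, 171 and 153 CPM in controls and at 252, 293, 273 and 234 CPM with fibers (log2 fold change 0.67 ± 0.08, adjusted p = 4.08e-07), and its change was 0.59 with the trend removed. The difference between the partners was not tested. Nor was an excess of the motif, for which a share of windows stands beside a count of genes.

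The p53 pathway, which stops the cell cycle after damage, had 10 of 26 tested genes higher and 6 lower (median 0.12), a share higher that is near the 32.2% of all genes. Mdm2, the ligase that degrades p53 and is itself a p53 target (chromosome 10, 117688875 to 117710758), stood at 162, 196, 228 and 205 CPM in controls and at 669, 867, 679 and 679 CPM with fibers (log2 fold change 1.87 ± 0.11, adjusted p = 8.48e-11). Cdkn1a, the p21 inhibitor of cyclin-dependent kinases (chromosome 17, 29093781 to 29100727), stood at 231, 298, 313 and 325 CPM and at 619, 618, 611 and 562 CPM with fibers (log2 fold change 1.05 ± 0.08, adjusted p = 1.81e-09). Ccng1 and Trp53 itself went from 318 ± 52.6 and 84.4 ± 8.27 to 704 ± 58.4 and 144 ± 10.1 CPM (log2 1.15 ± 0.10 and 0.77 ± 0.07). All exposed libraries were above all controls for these 4 genes. Perp, a p53 target that is also a desmosome component, was picked after its values were seen and went the other way, from 190.5 ± 33.7 to 45.8 ± 9.67 CPM (log2 -2.05 ± 0.17).

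In the integrated stress response, in which ATF4 raises amino acid supply, 12 of 23 genes rose and 5 fell. Eif4ebp1, a brake on translation, stood at 40.5, 43.6, 46 and 45.1 CPM and at 110.1, 114, 119.5 and 106 CPM with fibers (log2 fold change 1.36 ± 0.07, adjusted p = 4.84e-12). Phgdh, the first enzyme of serine synthesis, went from 24.5 ± 4.74 to 73.3 ± 4.43 CPM (log2 1.58 ± 0.12). Against that direction, Ddit4, an inhibitor of mTORC1 signaling, stood at 86.8, 89.6, 88.7 and 81.7 CPM and at 36.8, 28.2, 37.7 and 30.4 CPM with fibers (log2 fold change -1.38 ± 0.08, adjusted p = 2.62e-11), and the amino acid transporter gene Slc7a5 fell from 70.6 ± 6.81 to 25.4 ± 3.8 CPM (log2 -1.47 ± 0.10). Of 21 endoplasmic reticulum chaperones, 4 rose and 10 fell. Dnajb9, a BiP cofactor induced by the unfolded protein response, rose from 43.5 ± 5.29 to 98 ± 13.9 CPM (log2 1.17 ± 0.10), and Sdf2l1, another BiP partner, fell from 13 ± 0.831 to 4.43 ± 0.303 CPM (log2 -1.56 ± 0.16).

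Targets of NRF2, the factor of the antioxidant response, were higher in 11 and lower in 5 of 23 cases, and in 8 and 10 with the length trend removed. Over all genes 26.6% were higher and 37.0% lower with the trend removed, with a median of -0.10. The median of the NRF2 list went from 0.29 to -0.11. Gsr, glutathione reductase (chromosome 8, 33653238 to 33698163), stood at 180.5, 158, 134 and 141 CPM in controls and at 52.1, 46.6, 50.0 and 50.4 CPM with fibers (log2 fold change -1.63 ± 0.09, adjusted p = 4.40e-12). Tkt, transketolase of the pentose phosphate pathway, fell from 389 ± 16.5 to 177 ± 8.33 CPM (log2 -1.14 ± 0.06). The thioredoxin gene Txn1 and the ferritin gene Fth1 rose by 1.84 ± 0.07 and 1.52 ± 0.08 on the log2 scale, and by 1.01 and 0.52 with the trend removed. Fth1 has many processed copies, so its size is uncertain. Hmox1, heme oxygenase, was at 96.6 ± 21.5 CPM in controls, 198 ± 12.4 CPM at 12000 and 148 ± 13.3 CPM at 30000 fibers (log2 0.62 ± 0.14 against control), and with the trend removed its change of 0.27 did not pass the test (adjusted p = 0.0948). The metallothionein genes Mt1 and Mt2, which encode small metal-binding proteins, stood at 669.5, 619, 611 and 704 and at 351, 315, 323 and 364 CPM with fibers. Their control values were 116, 145, 118 and 111 and 113, 117, 82.6 and 92.1 CPM. Mt1 kept a rise of 1.62 with the trend removed, from 2.41 ± 0.09, and Mt2, with 511 nucleotides, went from 1.74 ± 0.09 to -0.29. The zinc importer gene Slc39a4 fell from 133 ± 20.2 to 34.7 ± 3.28 CPM (log2 -1.93 ± 0.12). Cyp1b1, a monooxygenase induced through the aryl hydrocarbon receptor, stood at 100.5, 91.9, 72.3 and 104 CPM in controls and at 31, 21.2, 32.7 and 26.7 CPM with fibers (log2 fold change -1.72 ± 0.13, adjusted p = 4.49e-09), and the receptor gene Ahr at 253, 190.0, 176 and 206 CPM and 81.1, 57.5, 81.5 and 78.8 CPM (log2 fold change -1.46 ± 0.15, adjusted p = 1.48e-06).

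**Figure D4:**
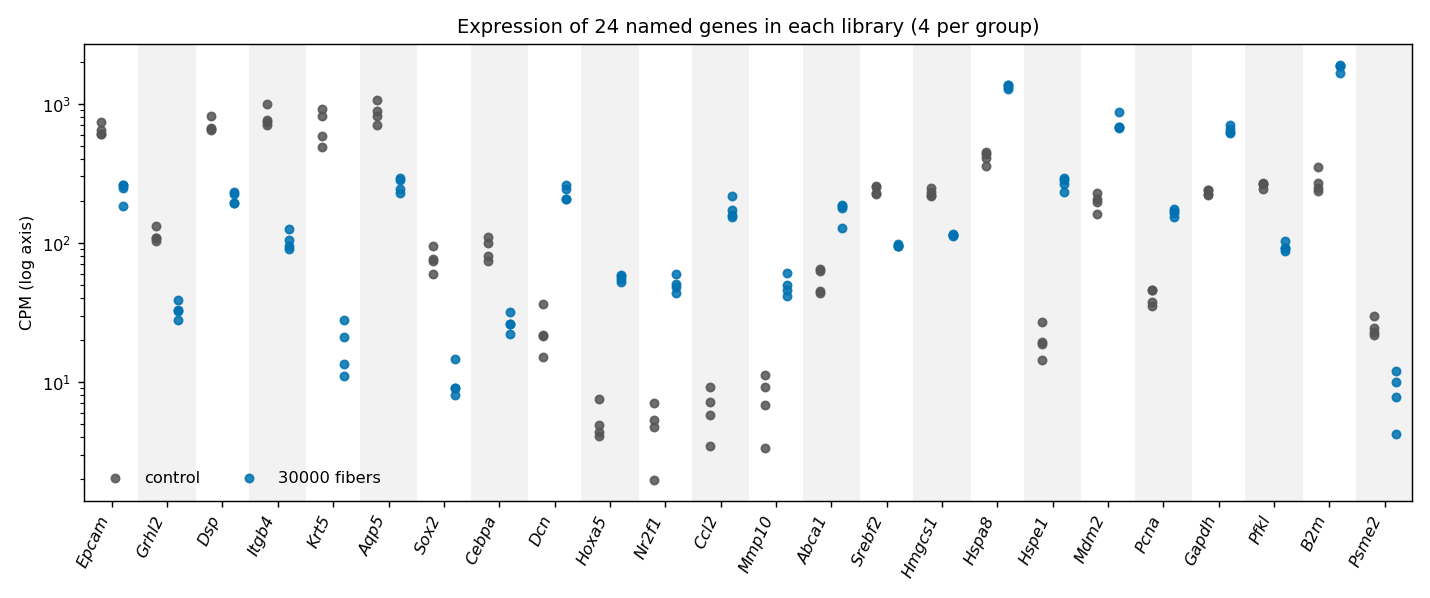
CPM (y axis, log scale) of 24 named genes (x axis) in each of the 4 control (grey) and 4 exposed (blue) libraries. For each gene shown the 2 groups do not overlap, as held for 58.1% of all genes tested. Pfkl and the adhesion, airway and sterol synthesis examples are lower, and Gapdh and the stromal, chaperone and p53 examples higher, with fibers.

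Genes of the hypoxia response and of glycolysis were lower in 21 of 30 cases and higher in 4, with 8 lower past 2-fold and a median of -0.57 (-0.56 with the trend removed). Pfkl, the liver phosphofructokinase (chromosome 10, 77986947 to 78009807), stood at 263, 242, 267 and 271 CPM in controls and at 92.5, 104, 87.1 and 92.5 CPM with fibers (log2 fold change -1.47 ± 0.08, adjusted p = 5.40e-12). Eno1, enolase, went from 75 ± 3.31 to 25.6 ± 2.42 CPM (log2 -1.56 ± 0.10). Of the members that rose, Gapdh, often used as a reference gene, stood at 226, 219.7, 240.1 and 239.9 CPM and at 615, 701, 656 and 629.7 CPM with fibers (log2 fold change 1.49 ± 0.07, adjusted p = 1.40e-13). Pgk1, the next enzyme of glycolysis, stood at 88.9, 87.9, 93 and 110.1 CPM and at 293, 308, 278 and 295 CPM with fibers (log2 fold change 1.63 ± 0.10, adjusted p = 5.82e-11). At 12000 fibers Gapdh was at 230.1 ± 12.8 CPM, within the control range. Gapdh, Pgk1 and Eno1 have near-identical copies elsewhere in the genome, so reads may be shared and these sizes are uncertain. Car9, a carbonic anhydrase and a standard hypoxia target, was picked after its values were seen. It stood at 17.9, 8.07, 12.2 and 23.7 CPM in controls and had 3, 2, 2 and 1 raw counts with fibers (log2 -4.47 ± 0.53).

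Cell cycle genes moved in both directions. Of 25 DNA replication and S phase genes, 10 rose and 3 fell (median 0.05), and of 24 genes of G2 and mitosis, 3 rose and 11 fell (median -0.19), beside 32.2% higher and 33.4% lower over all genes. A difference between the lists was not tested. Pcna, the sliding clamp of DNA polymerase (chromosome 2, 132249162 to 132253314), stood at 46, 45.8, 35.2 and 37.5 CPM in controls and at 175, 169.7, 164 and 153 CPM with fibers (log2 fold change 2.00 ± 0.09, adjusted p = 1.13e-13). Its change was 1.64 with the trend removed, and it was at 36.6 ± 2.53 CPM with 12000 fibers. Ccne2, the cyclin of entry into S phase, stood at 4.98, 7.1, 5.99 and 5.36 CPM and at 13.3, 13.4, 13.2 and 13 CPM with fibers (log2 fold change 1.17 ± 0.17, adjusted p = 4.44e-06), and the replication factor gene Gins2 went from 7.75 ± 1.75 to 16 ± 2.72 CPM (log2 1.05 ± 0.18). Mki67, the proliferation antigen (chromosome 7, 135689784 to 135716361), stood at 492, 500.0, 365 and 365 CPM and at 210.4, 267, 233 and 220.5 CPM with fibers (log2 fold change -0.89 ± 0.10, adjusted p = 1.18e-06). The centromere gene Cenpf and the spindle checkpoint gene Bub1b fell from 105 ± 12.4 and 45.8 ± 7.25 to 56.8 ± 7.97 and 22.9 ± 5.19 CPM (log2 -0.90 ± 0.10 and -1.01 ± 0.14). Ccnb1, the mitotic cyclin, rose instead, at 16.6, 16.7, 10.8 and 10.3 CPM in controls, 7.17, 5.33, 5.44 and 6.56 CPM with 12000 and 35.3, 26.8, 28.8 and 21.7 CPM with 30000 fibers (log2 fold change 1.04 ± 0.18, adjusted p = 4.42e-05 against control). Mki67 and Cenpf have transcripts of over 10 kilobases, and their changes with the trend removed were -0.74 and -0.74.

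Genes of protein synthesis and of the respiratory chain, which have short transcripts, were higher, with smaller medians once the length trend was removed. The 76 ribosomal protein genes had a median of 2.72, and of 1.40 with the trend removed, when 64 rose and 8 fell, compared with 71 and 4 before. Rpl30 (chromosome 15, 34440505 to 34443160), represented by a transcript of 2412 nucleotides, stood at 55.8, 44.1, 53.3 and 44.6 CPM in controls and at 775, 812, 768 and 840.5 CPM with fibers (log2 fold change 4.02 ± 0.09, adjusted p = 2.57e-18, and 3.93 with the trend removed). Such a transcript is long for a gene whose main product is short, and ribosomal protein genes have many pseudogenes, so this size is uncertain. The 36 nuclear respiratory chain genes went from 1.25 to 0.34, and 38 mitochondrial ribosomal protein genes from 0.91 to 0.27. Of the 13 protein genes of the mitochondrial genome, 12 rose and 1 fell. mt-Nd4, a complex I subunit, went from 5039 ± 959 to 20726 ± 1416 CPM (log2 2.04 ± 0.12, and 1.58 with the trend removed). The one that fell was mt-Nd6, the only protein gene on the light strand, at 404, 356, 324 and 409 CPM in controls and at 100.3, 105, 96.3 and 99.5 CPM with fibers (log2 fold change -1.90 ± 0.17, adjusted p = 6.78e-07, and -3.90 with the trend removed). It overlaps the end of mt-Nd5 on the other strand, and since the use of strand in counting is not known, its size is uncertain.

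Genes of protein breakdown were higher in the main test. Of 31 proteasome genes, 23 rose and 4 fell, and with the trend removed 13 rose and 9 fell, when the median of 0.59 became 0.08. Over all genes 26.6% rose and 37.0% fell with the trend removed, with a median of -0.10. Psma3, an alpha subunit of the proteasome core, stood at 22.5, 18.3, 15.9 and 15.9 CPM in controls and at 176, 153, 153 and 154 CPM with fibers (log2 fold change 3.13 ± 0.10, adjusted p = 5.13e-16). Lysosomal genes rose in 26 of 29 cases and fell in 1, with a median of 0.60 (0.51 with the trend removed, 0.46 at 12000 fibers). Gpnmb, a glycoprotein of lysosomes and phagocytic cells (chromosome 6, 49036615 to 49058182), stood at 2.08, 2.33, 3.13 and 3.14 CPM and at 17.2, 24.7, 17.7 and 13.7 CPM with fibers (log2 fold change 2.77 ± 0.20, adjusted p = 4.03e-10). Cd63, a tetraspanin of late endosomes, stood at 78.1, 92.4, 95.1 and 86.1 CPM and at 341, 402, 348 and 362 CPM with fibers (log2 fold change 2.05 ± 0.08, adjusted p = 2.28e-14, and 1.29 with the trend removed). Fibroblasts and macrophages also express these genes, and the fibroblast marker sums were higher in the same libraries, whose part was not tested.

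Among genes with a transcript of at least 2 kilobases, the largest rises included the transcription factors Nr2f1 and Ebf1. Nr2f1, the nuclear receptor COUP-TFI (chromosome 13, 78188973 to 78199757), stood at 1.97, 4.77, 7.04 and 5.36 CPM in controls and at 48.2, 60.0, 50.9 and 43.8 CPM with fibers (log2 fold change 3.41 ± 0.21, adjusted p = 6.69e-10). Ebf1 stood at 0.347, 0.486, 1.17 and 0.708 CPM and at 5.48, 5.29, 8.83 and 5.68 CPM with fibers (log2 fold change 3.24 ± 0.35, adjusted p = 1.23e-07). Rcan2, a regulator of calcineurin, went from 2.66 ± 0.923 to 26.4 ± 4.86 CPM (log2 3.30 ± 0.22). Inpp5d, the inositol phosphatase SHIP1 of blood cells, stood at 0.81, 0.584, 0.13 and 0.405 CPM in controls, 0.628, 0.266, 0.837 and 0.268 CPM with 12000 and 5.88, 4.23, 8.24 and 9.35 CPM with 30000 fibers (log2 fold change 3.78 ± 0.38, adjusted p = 4.74e-08 against control). Its representative transcript is not annotated as protein-coding, and with counts summed over transcripts the change was 3.13. Ube2v1 (log2 4.51 ± 0.17), Commd1b (log2 4.37 ± 0.30), Zfp985 (log2 3.77 ± 0.32) and Olfr889 (log2 3.31 ± 0.18) have close relatives or overlap other genes, so these 4 values are uncertain, and the same holds for Gng10, Nme2 and Cpne1, the largest rises at any length (log2 5.78 ± 0.36, 5.13 ± 0.13 and 5.13 ± 0.33). With the trend removed these last 3 were at 5.00, 4.26 and 4.04.

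The largest falls rested on few counts in the exposed libraries, so their sizes are uncertain, and not all of them are given here. Reg3g, the largest by the rule, had 2878, 2166, 1366 and 4291 raw counts in controls and 5, 1, 6 and 5 with fibers (log2 -7.63 ± 0.57). Pigr, the receptor that carries antibodies across epithelium (chromosome 1, 130826684 to 130852249), stood at 153, 54.5, 86.6 and 145 CPM in controls and at 2.74, 1.41, 2.65 and 1.0 CPM with fibers (log2 fold change -5.80 ± 0.56, adjusted p = 6.92e-06), on 7, 4, 9 and 3 raw counts. Fbln1, a secreted matrix protein, stood at 42.4, 34.9, 23.5 and 32.7 CPM and at 0.392, 1.41, 0.294 and 0.334 CPM with fibers (log2 fold change -5.77 ± 0.45, adjusted p = 4.70e-08), on 1, 4, 1 and 1 raw counts. Agr2, a folding factor for mucins, had 197, 126, 58 and 138 raw counts in controls and 1, 0, 0 and 0 with fibers, and Sobp had 260, 179, 111 and 224 and 0, 0, 1 and 1. The fitted changes were -7.10 and -6.82, and no exposed library reached a control. Ndufa4l2, a hypoxia-induced relative of a respiratory chain subunit, had 218, 95, 129 and 190 raw counts in controls and 1, 0, 0 and 1 with fibers.

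Among the airway cell lists not yet given, 18 of 20 club and secretory genes fell, 13 of them past 2-fold, and 1 rose (median -3.53, and -3.93 with the trend removed). The club list member that rose, also past 2-fold, was Scgb1a1, with a transcript of 476 nucleotides. It stood at 8.797, 16.54, 5.733 and 14.97 CPM in controls and at 228.4, 226.8, 174.6 and 209.8 CPM with fibers. Its log2 fold change was 4.15 ± 0.30 (adjusted p = 7.75e-07), and 2.00 with the trend removed. Of 25 ciliated cell genes 18 fell and 1 rose (median -1.31), and of 11 goblet cell genes 8 fell and 2 rose (median -1.74). The ciliated list member that rose was Tuba1a, an alpha tubulin that many cell types share, from 20.9 ± 3.35 to 152 ± 27.2 CPM (log2 2.85 ± 0.14, and 2.59 with the trend removed).

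The remaining lists are given briefly. Of 8 MHC class II genes 3 rose and none fell. With the length trend removed no class II gene passed the test in either direction. H2-Aa, a class II alpha chain, went from 70.8 ± 31.5 to 141 ± 27.4 CPM (log2 1.00 ± 0.30, and 0.26 with the trend removed). Of 15 listed neuroendocrine and tuft cell genes only 4 were tested, and all 4 rose (median 1.46, and 1.31 with the trend removed). Among them was Dclk1, a kinase of tuft cells and neurons, at 21.3, 32.5, 42.6 and 34.1 CPM in controls and at 114, 136, 98.3 and 93.9 CPM with fibers (log2 fold change 1.76 ± 0.17, adjusted p = 1.96e-06). It was at 62.5 ± 3.34 CPM with 12000 fibers. In the list of noncoding and host RNAs 12 of 18 genes rose and 1 fell, with Snhg18, a host of small nucleolar RNAs, at 9.84, 10.8, 13.7 and 10.8 CPM and at 65.4, 67.4, 60.3 and 60.8 CPM with fibers (log2 fold change 2.50 ± 0.11, adjusted p = 1.52e-13, and 2.11 with the trend removed).

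Of 19 myofibroblast and matrix genes 8 rose and 6 fell, and of 19 targets of the YAP and TAZ coactivators 6 rose and 8 fell. Over all genes 32.2% rose and 33.4% fell. Ajuba, a junction-associated LIM protein, fell from 194 ± 21.3 to 102 ± 7.07 CPM (log2 -0.92 ± 0.08). Of 31 translation factors 20 rose and 4 fell, and of 29 glutathione and peroxide genes 20 rose and 5 fell. With the length trend removed these became 17 and 7, and 14 and 9. Prdx2, a peroxiredoxin, went from 102 ± 8.74 to 232 ± 14.7 CPM (log2 1.18 ± 0.07, and 0.85 with the trend removed). Of 26 fatty acid genes 7 rose and 9 fell, near the shares over all genes. Acss2, which makes acetyl-CoA from acetate, fell from 10.6 ± 0.831 to 4.23 ± 1.1 CPM (log2 -1.33 ± 0.22).

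The 3 fiber numbers can be set side by side for the genes above, with the reminder that both exposures share their controls. In the same fit 7621 of 13759 genes differed between 30000 and 12000 fibers (55.4%), and 5231 between 12000 fibers and control (38.0%). Wnt7b, Cebpa and Krt7 were lower at 30000 than at 12000 fibers (log2 -1.25 ± 0.09, -1.60 ± 0.20 and -1.51 ± 0.08). Hspa8, Hspe1, Gapdh and Pcna were higher (log2 1.63 ± 0.07, 3.51 ± 0.14, 1.50 ± 0.07 and 2.17 ± 0.09), although none of these 4 had passed the test at 12000 fibers against control. Il33 did not pass the test between the fiber numbers (log2 0.04 ± 0.21, adjusted p = 0.884), with 19.6 ± 2.51 CPM at 12000 and 20.3 ± 3.68 CPM at 30000 fibers. The same held for Sox2 (log2 -0.49 ± 0.30, adjusted p = 0.181) and Ahr (log2 -0.16 ± 0.15, adjusted p = 0.389).

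**Figure D5:**
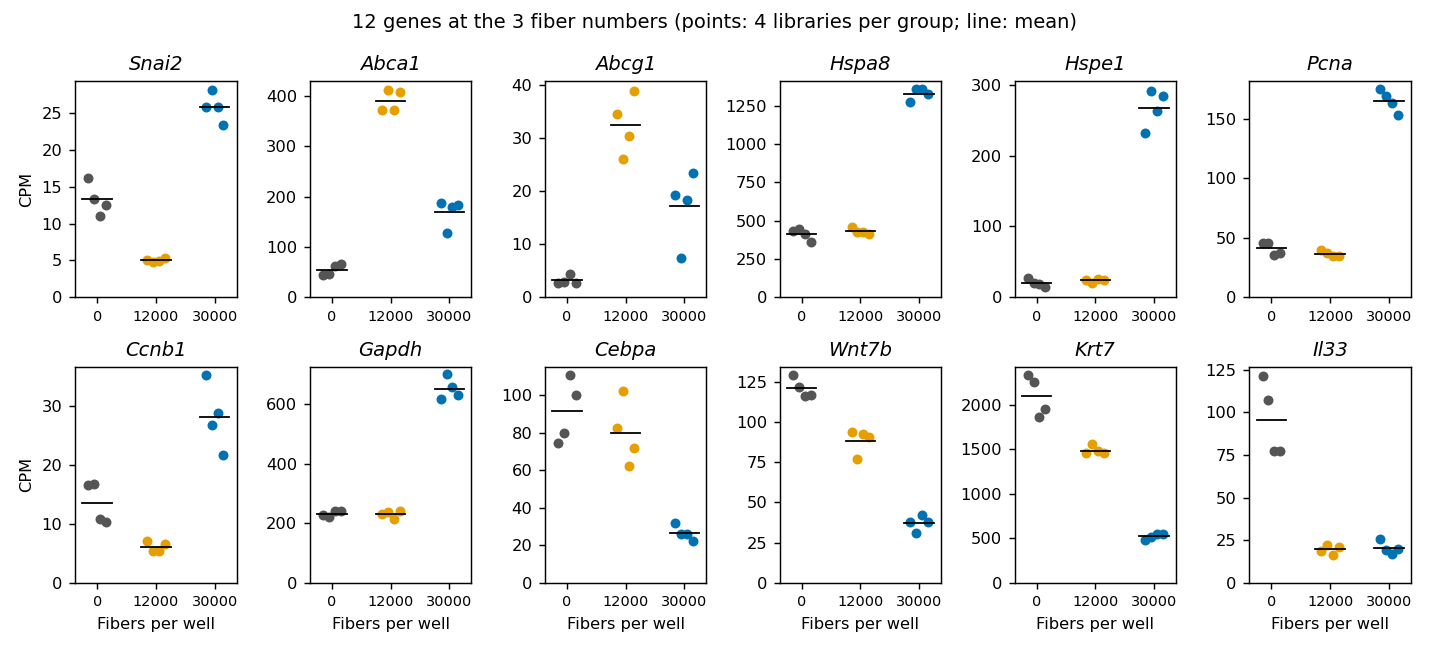
CPM (y axis, linear from 0) of 12 genes at 0, 12000 and 30000 fibers per well (x axis); each point is 1 library and each line the mean of 4. Abca1 and Abcg1 are highest and Snai2 and Ccnb1 lowest at 12000 fibers, while Hspa8, Hspe1, Pcna and Gapdh are high at 30000 fibers only.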

How the data were processed

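RNA was measured in 24 libraries, of which the 12 epithelial ones entered the fit. The deposited table holds whole-number read counts per transcript. Per the submitters' processing notes, bcl2fastq, FastQC, cutadapt 1.12 and HISAT2 2.1.0 were used with build mm10, while for the counting program, its annotation and the use of strand the sources used here give nothing. The lowest count total of a listed transcript over the 12 libraries was 60, so transcripts with few reads may have been removed by the authors before deposit. Intervals and errors therefore cover the spread between these libraries.

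Each of 14557 gene symbols was represented by the transcript with the highest mean epithelial count, among 71081 transcripts. Lengths and positions came from GENCODE M21 (70529 transcripts matched). Counts were tested with edgeR 4.0.16 (filterByExpr, TMM scaling, quasi-likelihood fit over 3 groups, R 4.3.3), with Benjamini-Hochberg adjustment over 13759 genes at 0.05, and against a change of 2-fold with glmTreat. Errors of fold changes are standard errors (SE), those of levels standard deviations (SD) over 4 mice, and CPM are scaled to the TMM-adjusted library size on representative transcripts. Data were also simulated from control levels, with few genes changed and no length trend. Genes set to a 4-fold rise were called in 100% of 50 cases, and those set to a 4-fold fall in 96% of 50. A 2-fold rise or fall was called in 90% and 87.8%, and unchanged genes in 0.0303%. In the measured data most genes differed and changes went with length, so these shares may not hold there. Summaries used Python 3.11.15, pandas 2.3.3 and numpy 2.4.6.

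Same-numbered libraries come from the same mouse by their labels. Their deviations from the group means correlated at 0.05, 0.17, -0.03 and 0.14 for mouse 1 to 4. Alternatives were the mouse as a block, DESeq2 1.42.0, RLE size factors, other filters, the 8 libraries alone, summed transcripts, no mitochondrial genes, thinning to 2799765 counts, removal of the length trend, voom (limma 3.58.1), leaving out each library and, chosen after seeing the data, transcripts of at least 2 kilobases. All 4 exposed libraries share the low depth and high mitochondrial share.

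The rule for named genes took the 15 largest rises and falls that averaged a log2 CPM of 1 or more and went the same way in 4 mice. It also took the 10 largest with long transcripts, up to 4 per list by smallest p, and a fixed set. Genes picked outside the rule are marked in the text. Not every gene that the rule took is described, and Foxj1 and Muc5ac of the fixed set are among those left out. The comparison, the lists and the rule were chosen with earlier results of these data known. Fibroblast libraries were not used here.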

Additional observations from a re-analysis of the deposited data

Results flagged for a closer look

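Among groups of 4 libraries, 27 of the 332 group values examined held a library whose gap to its nearest neighbour took up most of the group's range. Chance flags about 1 in 20 groups, and the same library recurs in several of them. In the controls, mouse 1 stood apart for Dsp (814 CPM, high), Itga6 (506 CPM, high), Hspa1a (27.4 CPM, high) and Fosl1 (22.9 CPM, low), and mouse 2 for Cpne1 (0.681 CPM, high).

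With 30000 fibers, mouse 2 stood apart in 9 cases. It was high for Ccl7 (60.7 CPM), Cxcl12 (147 CPM), Mdm2 (867 CPM), Ccng1 (791 CPM), S100a4 (456.5 CPM), Hmox1 (168 CPM) and Fbln1 (1.41 CPM), and low for Abca1 (127 CPM) and Ahr (57.5 CPM). Mouse 1 was high for Psma3 (176 CPM) and was the only library with counts of Agr2 (0.392 CPM). Mouse 3 was high for Sox2 (14.7 CPM), Ebf1 (8.83 CPM) and Krt4 (0.883 CPM), low for Id3 (59.8 CPM), and had the lowest level of mt-Nd5 (27600 CPM) and the lowest mitochondrial share (14.3%). Mouse 4 was high for Slc7a5 (31.1 CPM) and low for B2m (1666 CPM), Cdkn1a (562 CPM), Lef1 (14.7 CPM) and Tkt (164 CPM).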

How the results depend on the processing

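With the length trend removed, 797 genes rose past 2-fold in place of 1224. With transcripts of at least 2 kilobases alone, among 10374 genes tested, 591 rose and 439 fell past 2-fold, fewer genes by construction. Leaving out each library in turn gave 4205 to 4433 genes higher, 4368 to 4582 lower, 1118 to 1298 higher past 2-fold and 664 to 780 lower past 2-fold. With libraries thinned to the smallest total, the same 4 counts were 3827, 3904, 1024 and 589, among 12161 genes tested. Without mitochondrial genes they were 4424, 4590, 1207 and 730. The 159 named genes examined that had a value after thinning kept their calls, as did 158 without mitochondrial genes. With the mouse as a replicate block the 4 counts were 4480, 4661, 1245 and 759, and no call changed among the 161 named genes examined. Of these 161 genes, 151 kept direction and side of the threshold under all 20 alternatives that gave them a value. The direction turned with the length trend removed for Apoc1 (log2 -0.18), Cldn3 (-0.23), Mt2 (-0.29) and Sftpc (-0.15). Calls were lost that way for Hmox1, Mif, Cd68 and H2-Aa (also lost with summed transcripts, log2 0.57), and gained for Xist, and Mmp12 gained one with summed transcripts (log2 0.86). Of 53 list medians, 23 moved by more than the spread between mice with the trend removed. Among these, the medians of the NRF2, chemokine, myofibroblast and EGF lists turned negative (-0.11, -0.18, -0.15 and -0.02). That of the AP-1 list also turned negative (-0.04), but moved by less than the spread between mice. The causes of these shifts were not tested. Depth limits genes with under 10 counts in the exposed libraries, whose fold changes are least certain.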
